A study of Homo sapiens with 18 samples.

Results

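The ephrin, semaphorin, Slit, netrin and receptor genes of axon guidance were examined in U87mg and DAOY spheroidal aggregates. A gene was a member if its symbol belonged to the ephrins (EFNA, EFNB), the Eph receptors (EPHA, EPHB), semaphorin classes 3 to 7, the plexins, the neuropilins, ROBO1 to ROBO4, SLIT1 to SLIT3, the netrins NTN1 to NTN5 or UNC5A to UNC5D, and if at least one of its transcripts was annotated as protein coding. This gave 67 members among 32490 gene names. A further 6 names matched the symbols but had no protein-coding transcript and were left out: EPHA6 and the antisense genes EPHA1-AS1, EPHA5-AS1, SEMA3B-AS1, SEMA3F-AS1 and SEMA6A-AS1.

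U87mg is an established human glioblastoma cell line and DAOY an established line from a desmoplastic cerebellar medulloblastoma. Aggregates were set in a Matrigel and medium gel in narrow channels for a day and then received a continuous direct current electric field (dcEF) of 250 V/m for 2 h or 8 h, or no field (the 0 h control). Each of the 6 groups held 3 samples, each sample pooled the material of 3 channels, and polyA RNA was sequenced. Each line is a single cell line, and no sample was kept in the channel for 2 h or 8 h without a field, so field and time in the channel cannot be told apart.

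Axon guidance proteins are extracellular cues and their receptors, first studied in growing nerve fibres and also used by migrating tumour cells. Ephrins are held on the cell surface, by a lipid anchor in the A class and by a transmembrane segment in the B class, and bind Eph receptor tyrosine kinases on neighbouring cells, with signalling in both cells. Semaphorins signal through plexins, and most secreted class 3 semaphorins need a neuropilin as co-receptor. Slits bind Robo receptors, and netrins bind DCC, neogenin and the UNC5 receptors.

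The 250 bases before the start site of 4 members are shown because these genes carry the results that follow: EPHA2 and EFNB1, the members that moved most in DAOY after 8 h, and EFNA1 and PLXNB3, which were each near 0 in one line. The sequences are those of RefSeq on GRCh38.p14, read 5′ to 3′ on the strand of the gene, with CpG dinucleotides in capitals. The EPHA2 sequence lies at chr1:16156070-16156319 on the minus strand, that of EFNB1 at chrX:68828771-68829020 on the plus strand, that of EFNA1 at chr1:155127626-155127875 on the plus strand and that of PLXNB3 at chrX:153763999-153764248 on the plus strand.
EPHA2: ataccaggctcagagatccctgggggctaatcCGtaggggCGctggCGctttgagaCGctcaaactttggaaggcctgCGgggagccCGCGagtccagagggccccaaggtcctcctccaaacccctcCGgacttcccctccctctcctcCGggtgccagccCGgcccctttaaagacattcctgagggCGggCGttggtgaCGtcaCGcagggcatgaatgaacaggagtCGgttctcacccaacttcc
EFNB1: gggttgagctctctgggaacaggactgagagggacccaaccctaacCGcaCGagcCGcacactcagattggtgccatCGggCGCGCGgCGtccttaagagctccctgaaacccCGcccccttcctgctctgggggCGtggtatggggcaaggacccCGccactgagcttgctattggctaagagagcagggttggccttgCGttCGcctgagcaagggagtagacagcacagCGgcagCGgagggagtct
EFNA1: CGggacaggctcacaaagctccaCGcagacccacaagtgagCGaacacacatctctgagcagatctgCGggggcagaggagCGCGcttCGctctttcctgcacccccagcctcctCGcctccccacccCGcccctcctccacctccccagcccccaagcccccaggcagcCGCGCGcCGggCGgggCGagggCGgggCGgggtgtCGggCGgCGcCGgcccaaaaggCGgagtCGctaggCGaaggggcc
PLXNB3: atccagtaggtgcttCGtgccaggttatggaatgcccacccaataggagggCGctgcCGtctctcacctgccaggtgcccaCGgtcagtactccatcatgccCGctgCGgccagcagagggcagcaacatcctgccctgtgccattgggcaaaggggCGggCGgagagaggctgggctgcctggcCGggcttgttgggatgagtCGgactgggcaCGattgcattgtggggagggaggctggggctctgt

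These stretches held 15, 15, 24 and 11 CpG dinucleotides respectively. A promoter sequence was found for 57 of the 67 members, with a median of 17 CpG dinucleotides against 11 over 27305 RefSeq promoters of the same length. The GC box GGGCGG, searched on both strands, was present in 73.7% of the member promoters and in 42.3% of all. Member promoters were also richer in G and C, with a median of 65.6% against 58% of all. The part of this in the motif shares was not tested. The TATA box TATAAA was in 1.75% of member promoters against 11.1% of all. The cyclic AMP response element TGACGTCA, was present in 2 of the 57 member promoters (3.51%, against 1.77% of all), and EPHA2 was one of them. The AP-1 motif TGANTCA was found in 1.75% of member promoters and 6.6% of all. The 4 motifs cannot share bases with each other. They were chosen with results of these data known, and a match is a description of the letters only. For some members the most abundant transcript starts far from the RefSeq start, among them ROBO2 by 1318242 bases, EFNA5 by 243423, UNC5C by 213341 and SEMA4D by 118374.

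The libraries held 8341976 to 15610886 estimated counts, with members taking 0.206 to 0.26% of counts in U87mg and 0.149 to 0.209% in DAOY. Levels are given as TPM, the share of transcripts that a gene takes in a library after scaling by transcript length, on a fixed library total. The defining markers fitted the labels in part. VIM (mean 4606 TPM in U87mg and 2221 TPM in DAOY) was high in both lines and GFAP (1.16 and 0.4 TPM) low. In the same order, CD44 (2962 and 1179 TPM), CHI3L1 (108.3 and 6.724 TPM), SLC1A3 (42.68 and 18.02 TPM) and NES (7.518 and 0.4876 TPM) had higher means in U87mg. SOX2 was near 0 in U87mg (0.0297 TPM) but not in DAOY (4.81 TPM). The rest of the glial list was low, with higher means in DAOY: ALDH1L1 (1.601 TPM), OLIG2 (0.8147 TPM), AQP4 (0.599 TPM) and S100B (0.09048 TPM). The granule lineage factors ATOH1 and BARHL1 were under 0.1 TPM in both lines. Others of the cerebellar list were present in DAOY: ZIC1 (11.9 TPM, against 6.9 TPM in U87mg), ZIC2 (mean 5.39 TPM in U87mg and higher in DAOY), MEIS1 (12.4 against 4.89 TPM) and OTX2 (1.77 TPM, listed at 0 in U87mg), while PAX6 was at 23.0 and 25.0 TPM, and GLI1 (0.21 against 3.56 TPM) and GLI2 (1.23 against 3.49 TPM) were lower in DAOY. The immune list summed to 247.6 to 602.4 TPM in U87mg, almost all of it from CD68 (mean 387 TPM), while PTPRC was at 0.129 TPM. In bulk aggregates, fewer cells expressing a gene and less RNA per cell cannot be told apart.

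A member was tested within a line when it passed edgeR's filter on low counts there. In both lines 37 members passed, in DAOY alone 15, in U87mg alone 2 (PLXNB3 and SEMA3B) and in neither 13. The last were EFNA2, EPHA1, EPHA8, EPHA10, NTN3, NTN5, ROBO4, SEMA3G, SEMA4A, SEMA5B, SLIT1, UNC5A and UNC5C, none above 19 counts in any library or a mean of 0.753 TPM in either line. The 15 that passed in DAOY alone were EFNA1, EFNB3, EPHB1, EPHB3, EPHB6, NTN1, PLXNC1, ROBO2, SEMA3D, SEMA3E, SEMA3F, SEMA4G, SEMA6B, SEMA6C and UNC5D. Each aggregate therefore expressed members of every family, but not the same ones.

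**Figure D1:**
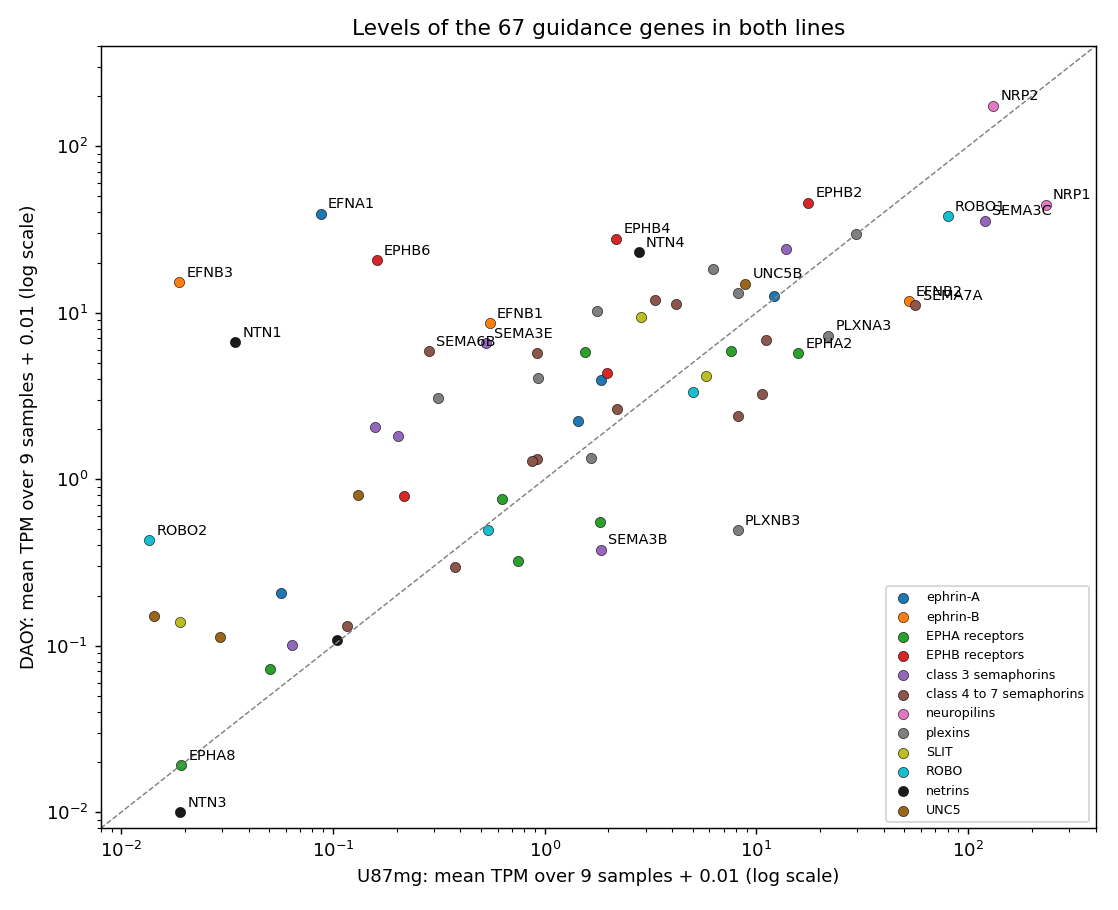
Mean TPM of each of the 67 members over the 9 U87mg samples (horizontal axis) against the 9 DAOY samples (vertical axis), both log scales with 0.01 added, coloured by family, with a dashed line of equal level. NRP1, SEMA3C, SEMA7A and EFNB2 lay to the right of the line, and EFNA1, EFNB3, EPHB6, EPHB4 and NTN4 lay above it.

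A neuropilin stood highest in each line, NRP1 in U87mg and NRP2 in DAOY. NRP1, a co-receptor for class 3 semaphorins and for vascular endothelial growth factor, had a mean of 233 TPM ± 21.5 (SD, n = 9) in U87mg and 44.5 TPM ± 8.6 (SD, n = 9) in DAOY. NRP2 had 131 TPM ± 32.1 (SD, n = 9) in U87mg and 175 TPM ± 54.1 (SD, n = 9) in DAOY, ranges that overlapped. In U87mg the next levels were those of SEMA3C (120 TPM ± 11.5), a secreted class 3 semaphorin, ROBO1 (79.9 TPM ± 8.91), the main Slit receptor there, SEMA7A (56.3 TPM ± 19.3), a lipid-anchored semaphorin that also binds integrins, and EFNB2 (52.4 TPM ± 5.4), each with SD over 9 samples. In DAOY NRP2 was followed by EPHB2 (45.6 TPM ± 15.8), a receptor for B class ephrins, NRP1, EFNA1 (39.3 TPM ± 21.7), ROBO1 (37.9 TPM ± 5.14) and SEMA3C (35.7 TPM ± 7.44). In U87mg NRP2 and SEMA3C, and SEMA7A and EFNB2, lay within 1 SD of each other, as did each neighbouring pair from EPHB2 to SEMA3C in DAOY.

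Before the field, 43 of the 55 members tested differed between the lines at an adjusted p under 0.05 in edgeR's quasi-likelihood fit, adjusted after Benjamini and Hochberg across the genes tested. P-values here measure the spread between the samples of a group. This was 78.2% of the members tested, against 60.7% of the 16482 genes tested. Of the 43, 26 were higher in DAOY (32.8% of all genes were) and 17 lower (27.9% of all genes), and 39 passed both the test and a 2-fold change (41.2% of all genes). Over all 9 and 9 samples, the TPM of 30 of the 55 members did not overlap between the lines, or 54.5%, against 36.0% of all genes tested, with 20 higher in DAOY and 10 lower. The median log2 fold change, DAOY over U87mg, was 0.67 for members and 0.05 for all genes. A gene could pass the filter through 1 line alone. Its low level in the other line then favours a call and a lack of overlap, higher in the line that passed. Such members were the 15 that passed in DAOY alone, among them EFNA1, EFNB3 and NTN1, and the 2 in U87mg alone, PLXNB3 and SEMA3B. All of the 15 but SEMA4G and SEMA6C were called higher in DAOY, and both of the 2 lower. All of the 15 but EPHB1, EPHB3, SEMA4G and SEMA6C, and both of the 2, were without overlap. The count without overlap was not repeated under another filter, and the direction of the median depended on the filter. Among the 29 members with at least 10 counts in every sample, 12 were higher in DAOY and 17 lower, with a median of -0.425 (all genes -0.026), and 23 were called, beside 57.3% of all genes. On the TPM scale limma called 35 of the 43 with the same sign. Of the other 8, EPHA4, EPHB1, EPHB3, PLXNB2, SEMA3A, SEMA4B and SLIT2 kept their sign and EFNA5 did not.

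**Figure D2:**
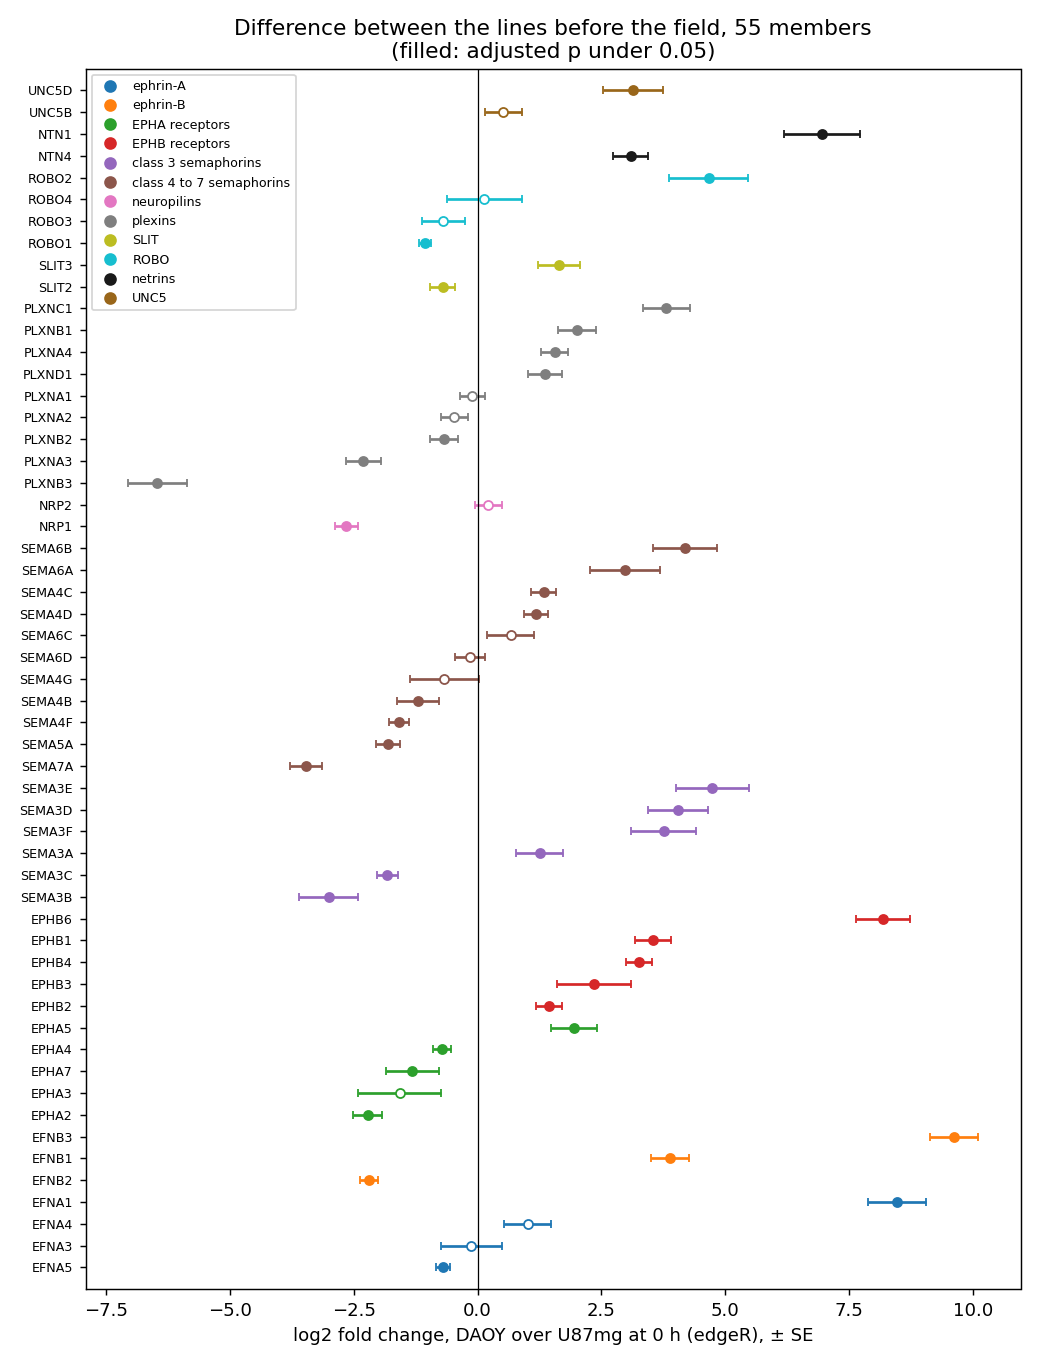
Log2 fold change of DAOY over U87mg at 0 h (horizontal axis, edgeR, ± SE) for the 55 members tested, grouped by family, with filled points for an adjusted p under 0.05. All 5 EPHB receptors lay to the right of 0, of which EPHB1, EPHB3 and EPHB6 had passed the filter in DAOY alone. EFNB2 lay to the left of 0 and the other B class ephrins to its right.

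The ephrins differed by member rather than by class. EFNB3 was at 11.8, 21.7 and 13.6 TPM in the 3 DAOY samples at 0 h and at 0, 0 and 0.0324 TPM in U87mg. Its pooled reads were 982 in DAOY against 1 in U87mg, a ratio of counts per total count of 1246 (exact binomial 95% interval 223 to 49270, counting error only). EFNA1, a ligand of EPHA2, was at 16.4, 32.1 and 51.3 TPM in DAOY and at 0.251, 0 and 0.0766 TPM in U87mg. The DAOY samples were far apart and all above every U87mg sample, with pooled reads of 728 against 2 and a ratio of 462 (interval 127 to 3821). EFNB1 was at 4.46, 14.2 and 11.8 TPM in DAOY against 0.216, 0.954 and 0.688 TPM in U87mg, 14.9-fold higher (log2 3.89, SE 0.38, edgeR adjusted p = 1.3e-07). EFNB2, the ligand of EPHB4, ran the other way, at 7.55, 12.5 and 13.6 TPM in DAOY against 44.95, 51.9 and 47.6 TPM in U87mg, 4.55-fold lower in DAOY (edgeR adjusted p = 1.31e-08). EFNA5 was 1.62-fold lower in DAOY on counts (edgeR adjusted p = 0.000612) but not on TPM, with means of 13.8 TPM in DAOY and 12.7 TPM in U87mg (limma log2 0.08, adjusted p = 0.847), with EFNA3 and EFNA4 not called (edgeR adjusted p = 0.872 and 0.0766).

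EFNA4, EFNA3 and EFNA1 are neighbours on chromosome 1, at chr1:155063731-155069553, chr1:155078872-155087538 and chr1:155127460-155134857 on the plus strand (GENCODE 29 coordinates on GRCh38). Their mean levels over 9 samples were 1.83, 1.43 and 0.0776 TPM in U87mg and 3.95, 2.21 and 39.3 TPM in DAOY. The large difference between the lines was thus seen in EFNA1 and not in the adjacent EFNA3 and EFNA4.

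Among the receptors, all 5 EPHB genes tested were called higher in DAOY on counts (3 of them also by limma on TPM). EPHB1, EPHB3 and EPHB6 had passed the filter in DAOY alone, which favours that direction, and EPHB2 and EPHB4 in both lines. Of the 5 EPHA genes tested 1 was called higher and 3 lower. EPHB6, an Eph receptor whose kinase domain is inactive, was at 7.09, 15.3 and 25.9 TPM in DAOY and at 0.329, 0.0427 and 0.0324 TPM in U87mg. Its pooled reads were 851 against 3, a ratio of 360 (interval 123 to 1749). Only 36.9% of the EPHB6 counts in DAOY were on transcripts annotated as protein coding, and the leading transcript, with 49.8%, was annotated as subject to nonsense-mediated decay. EPHB4, the receptor of EFNB2, was at 14.2, 29.4 and 24.5 TPM in DAOY against 1.53, 3.23 and 2.81 TPM in U87mg, 9.63-fold higher (edgeR adjusted p = 1.23e-08). EPHB2 was 2.72-fold higher in DAOY (edgeR adjusted p = 0.000144). EPHB1 was 11.6-fold higher on counts (359 against 35 pooled, edgeR adjusted p = 1.74e-07), but its TPM overlapped, at 4.07, 5.63 and 4.14 in DAOY against 2.75, 5.25 and 1.35 in U87mg (limma log2 0.55, adjusted p = 0.15). EPHB3 was low and also overlapped in TPM, at 0.112, 0.681 and 0.506 in DAOY against 0.0695, 0.0322 and 0.288 in U87mg, with a 5.1-fold difference on counts (edgeR adjusted p = 0.0114) that limma did not call (adjusted p = 0.298). The summed level of the 5 EPHB receptors was 84.5 TPM ± 27.7 (SD, n = 3) in DAOY and 24.9 TPM ± 9.53 (SD, n = 3) in U87mg at 0 h.

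EPHA2, a receptor tyrosine kinase often abundant in glioblastoma, went with U87mg. It was at 8.12, 26.8 and 15.7 TPM in U87mg and at 2.36, 4.56 and 2.64 TPM in DAOY at 0 h, 4.64-fold lower in DAOY (edgeR adjusted p = 4.95e-06). The groups did not overlap, although the U87mg samples spanned a wide range. EPHA4 and EPHA7 were also called lower in DAOY (log2 -0.71 and -1.32), EPHA5 higher (log2 1.95), and EPHA3 was not called (log2 -1.57, edgeR adjusted p = 0.114). At 0 h every DAOY sample thus had more of the ligand EFNA1 and less EPHA2 than any U87mg sample.

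The class 3 semaphorins formed 2 sets. SEMA3E, which binds PLXND1 without a neuropilin, was at 3.2, 15.0 and 7.76 TPM in DAOY against 0.6, 0.405 and 0.411 TPM in U87mg, 26.8-fold higher (edgeR adjusted p = 2.79e-05). SEMA3D was 16.5-fold higher (edgeR adjusted p = 1.78e-05) and SEMA3A, the best known growth cone repellent, 2.39-fold on counts (edgeR adjusted p = 0.0291; limma on TPM, adjusted p = 0.272). SEMA3F had pooled counts of 65 in DAOY and 5 in U87mg, a ratio of 16.5 (interval 6.72 to 52.5). SEMA3C was lower in DAOY, at 36.8, 32.9 and 28.8 TPM against 102, 121 and 127 TPM, a 3.53-fold difference (edgeR adjusted p = 7.82e-07). SEMA3B was 7.99-fold lower (edgeR adjusted p = 0.000304). SEMA3A, SEMA3C, SEMA3D and SEMA3E lie between chr7:80742538 and chr7:85186855, and SEMA3B and SEMA3F between chr3:50155045 and chr3:50277546 (GENCODE 29 on GRCh38), so that neighbours in both clusters differed in opposite directions.

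Of the membrane-bound classes 4 to 7, 4 members were called higher in DAOY, 4 lower and 3 neither. SEMA7A was at 39.5, 70.7 and 98.5 TPM in U87mg against 7.58, 8.44 and 7.81 TPM in DAOY, 11-fold lower in DAOY (log2 -3.46, SE 0.33, edgeR adjusted p = 7.88e-08). SEMA6B was at 3.5, 10.3 and 3.08 TPM in DAOY against 0, 0.486 and 0.557 TPM in U87mg, 18.2-fold higher (edgeR adjusted p = 2.73e-05). SEMA5A and SEMA4F were 3.49-fold and 3.01-fold lower in DAOY (edgeR adjusted p = 5.63e-06 and 2.78e-06). SEMA6A (log2 2.98), SEMA4C (1.34) and SEMA4D (1.18) were higher and SEMA4B (-1.20) lower. The highest class 4 to 7 level was that of SEMA7A in U87mg, and in DAOY that of SEMA4C (11.9 TPM ± 3.44, SD, n = 9). Of the SEMA4D counts in DAOY, 43.9% were on protein-coding transcripts and 40.3% on 1 transcript with a retained intron.

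The semaphorin receptors also split. NRP1 was at 48.4, 31.98 and 56.4 TPM in DAOY against 215, 273 and 243 TPM in U87mg, 6.28-fold lower (edgeR adjusted p = 3.81e-08). NRP2 was not called, at log2 0.22 (SE 0.28, edgeR adjusted p = 0.519). PLXNB3 was at 0.0252, 0.0221 and 0.492 TPM in DAOY and at 6.33, 13.1 and 14.6 TPM in U87mg, with pooled counts of 5 against 596. This was a ratio of 93.9 in favour of U87mg (interval 40.0 to 290). PLXNA3 was 4.95-fold lower in DAOY (edgeR adjusted p = 2.11e-05) and PLXNB2 1.6-fold lower on counts (edgeR adjusted p = 0.0456; limma on TPM, adjusted p = 0.26). PLXNC1, the receptor of SEMA7A, was 14.1-fold higher in DAOY (edgeR adjusted p = 1.96e-06), at 3.26, 3.94 and 1.89 TPM against 0.621, 0.315 and 0.179 TPM. PLXNB1, PLXNA4 and PLXND1 were 4-fold, 2.94-fold and 2.57-fold higher. PLXNB2 had the highest plexin level in both lines, with means of 29.4 TPM ± 11.2 in U87mg and 29.5 TPM ± 9.53 in DAOY (SD, n = 9).

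Slits, Robos, netrins and UNC5 receptors had fewer members in use. ROBO1 was at 39.3, 43.6 and 38.7 TPM in DAOY against 86.5, 80.1 and 79.7 TPM in U87mg, 2.08-fold lower (edgeR adjusted p = 1.07e-06). ROBO2 stayed under 0.7 TPM in every DAOY sample and had 1 pooled count in U87mg at 0 h, against 31 in DAOY, a ratio of 39.3 (interval 6.56 to 1603). ROBO2 had passed the filter in DAOY alone, and its most abundant transcript was annotated with a retained intron. SLIT2, the leading Slit in U87mg (5.77 TPM ± 2.36, SD, n = 9), was 1.62-fold lower in DAOY, and SLIT3, the leading Slit in DAOY (9.45 TPM ± 4.59, SD, n = 9), was 3.11-fold higher there, with edgeR adjusted p of 0.0244 and 0.00279, the first not called on TPM (limma adjusted p = 0.789). NTN1, the founding secreted netrin, was at 3.49, 9.29 and 2.53 TPM in DAOY and at 0.0734, 0.0453 and 0 TPM in U87mg, with pooled counts of 615 against 5 and a ratio of 156 (interval 66.5 to 482). NTN4 was at 23.1, 12.2 and 32.3 TPM in DAOY against 2.7, 3.54 and 2.02 TPM, 8.51-fold higher (edgeR adjusted p = 7.15e-07). UNC5B, the leading UNC5 receptor in both lines, was not called (log2 0.52, SE 0.37, edgeR adjusted p = 0.229). UNC5D, which had passed the filter in DAOY alone, was 8.82-fold higher there on counts (edgeR adjusted p = 0.000221). On TPM its limma log2 was 0.56 (adjusted p = 0.0126). Its levels were low, with means over 9 samples of 0.791 TPM in DAOY and 0.121 TPM in U87mg. DCC, the other main netrin receptor and not a member, was at 2.02 TPM ± 0.484 (SD, n = 3) in U87mg at 0 h and listed at 0 in all 3 DAOY samples, while its relative NEO1 was at 12.4 TPM ± 0.303 (SD, n = 3) in U87mg and 52.4 TPM ± 9.84 (SD, n = 3) in DAOY.

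The field comparisons were read against the base composition of the libraries, since members are rich in G and C. The leading transcripts of the members tested had a median GC content of 55.3%, against 47.3 to 47.5% for all genes tested. Libraries of the same group differed in how their counts followed GC content. Over genes, the correlation between a library's deviation from the mean of its line and GC content was -0.459, 0.588 and 0.53 in the U87mg 0 h samples 0, 1 and 2, and -0.573, 0.313 and 0.0146 in those of DAOY, genes not being independent. The median deviation of the members with at least 55% GC was -0.441, 0.513 and 0.426 on the log2 scale in the U87mg 0 h samples, and -0.732, 0.374 and -0.236 in the DAOY ones. In both 0 h groups sample 0 was the lowest and sample 1 the highest on both measures. A fit with the GC trend of each library removed was therefore added after seeing the data. It treats the trend as known, so that its p-values leave out the error of the trend. Beyond that fit, the part of base composition in the field comparisons was not tested.

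**Figure D3:**
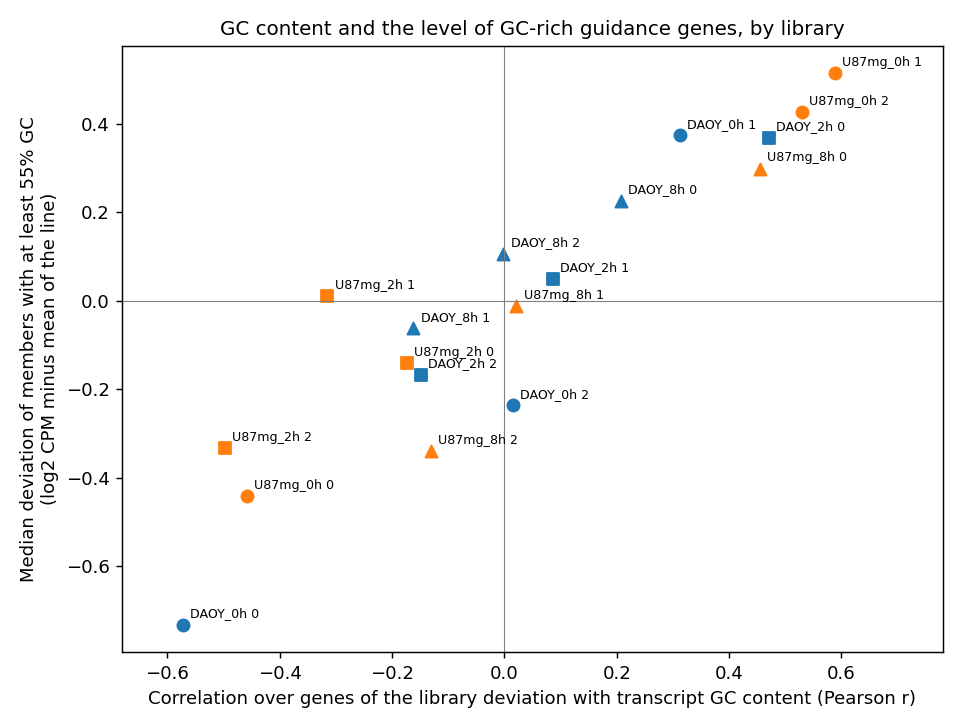
Each of the 18 libraries by the correlation over genes of its deviation with transcript GC content (horizontal axis, Pearson r) and by the median deviation of members with at least 55% GC (vertical axis, log2 CPM minus the mean of the line); orange marks U87mg, blue DAOY, and circles, squares and triangles 0, 2 and 8 h, with the sample number beside each point. Sample 0 of both 0 h groups lay at the lower left, with median deviations of -0.441 and -0.732.

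After 2 h of field no member was called in either line. In U87mg, 0 of 39 members tested had an edgeR adjusted p under 0.05, as for 0.0% of all 14106 genes tested, with 4 members at an unadjusted p under 0.05 and 0 members called by DESeq2 or by limma on log2(TPM + 1). In DAOY, 0 of 52 members were called by edgeR, against 0.0% of 15396 genes, with 3 at an unadjusted p under 0.05 and again 0 by DESeq2 or limma. The median log2 fold change of the members was -0.12 in U87mg (all genes -0.02) and 0.09 in DAOY (all genes 0.002).

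The 3 members with the smallest p in U87mg at 2 h were SEMA4C, EFNB2 and PLXNB3. SEMA4C, a PLXNB2 ligand, was at 2.75, 5.11 and 4.98 TPM at 0 h and 2.54, 2.22 and 2.26 TPM at 2 h, a log2 fold change of -0.75 (SE 0.25, edgeR adjusted p = 0.495). All 2 h samples lay below the 0 h samples. EFNB2 was at 57.1, 56.7 and 62.4 TPM at 2 h, above the 44.95 to 51.9 TPM of 0 h, with log2 0.27 (SE 0.11, edgeR adjusted p = 0.495). PLXNB3 had log2 -0.76 (SE 0.34) at the same adjusted p. Among the plexins 7 of the 8 tested had a negative value, with a median of -0.46. Sample 0 of the 0 h group decided the calls: without it the median of the members went to -0.387 (all genes -0.016), and EPHA2, PLXNA1, PLXNA3, PLXNB2, PLXNB3, SEMA4B and SEMA4C passed as lower at 2 h (edgeR adjusted p from 0.0296 to 0.0473), along with 1214 genes or 8.38% of all those tested. PLXNB2 shows the spread, at 16.3, 46.9 and 49.6 TPM at 0 h and 26.2, 24.1 and 26.3 TPM at 2 h. The fitted log2 change was -0.40, and 0.02 with the GC trend removed, where no member was called, also when sample 0 was left out.

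In DAOY at 2 h the smallest p belonged to SEMA7A, PLXNA1 and EFNA1. SEMA7A was at 7.58, 8.44 and 7.81 TPM at 0 h and 14.8, 12.2 and 8.62 TPM at 2 h, log2 0.71 (SE 0.30), with every 2 h sample above the 0 h samples. EFNA1 was at 64.5, 72.3 and 52.3 TPM at 2 h, above its 16.4 to 51.3 TPM at 0 h, log2 0.79 (SE 0.34). PLXNA1, a co-receptor partner of the neuropilins, had log2 0.56 (SE 0.24). The edgeR adjusted p was 0.999 for all 3.

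After 8 h in DAOY, EPHA2 was the 1 member called. It was at 2.36, 4.56 and 2.64 TPM at 0 h, 6.29, 3.55 and 3.24 TPM at 2 h and 11.6, 9.95 and 6.95 TPM at 8 h. Every 8 h sample lay above every earlier one, while those of 0 h and 2 h overlapped. The increase at 8 h was 3.13-fold (log2 1.65, SE 0.31, edgeR adjusted p = 0.0185). EPHA2 was thus 1 of 52 members tested (1.92%), against 5.85% of the 15396 genes tested and, with the 2-fold change that EPHA2 also passed, 3.13%. The share of members called was below that of all genes. At an unadjusted p under 0.05 there were 5 members, or 9.62%, against 22.7% of all genes. The call was lost without sample 2 of 0 h and without sample 0 or sample 1 of 8 h, with log2 values between 1.5 and 1.94 and adjusted p up to 0.0772 over the 6 single omissions. With the GC trend removed the log2 fold change was 1.59 (SE 0.24, edgeR adjusted p = 0.0049), and it passed in all 6 single omissions (1.41 to 1.77). EPHA2 lies at chr1:16124337-16156087 on the minus strand (GENCODE 29 on GRCh38), and 99.4% of its DAOY counts were on 1 protein-coding transcript.

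**Figure D4:**
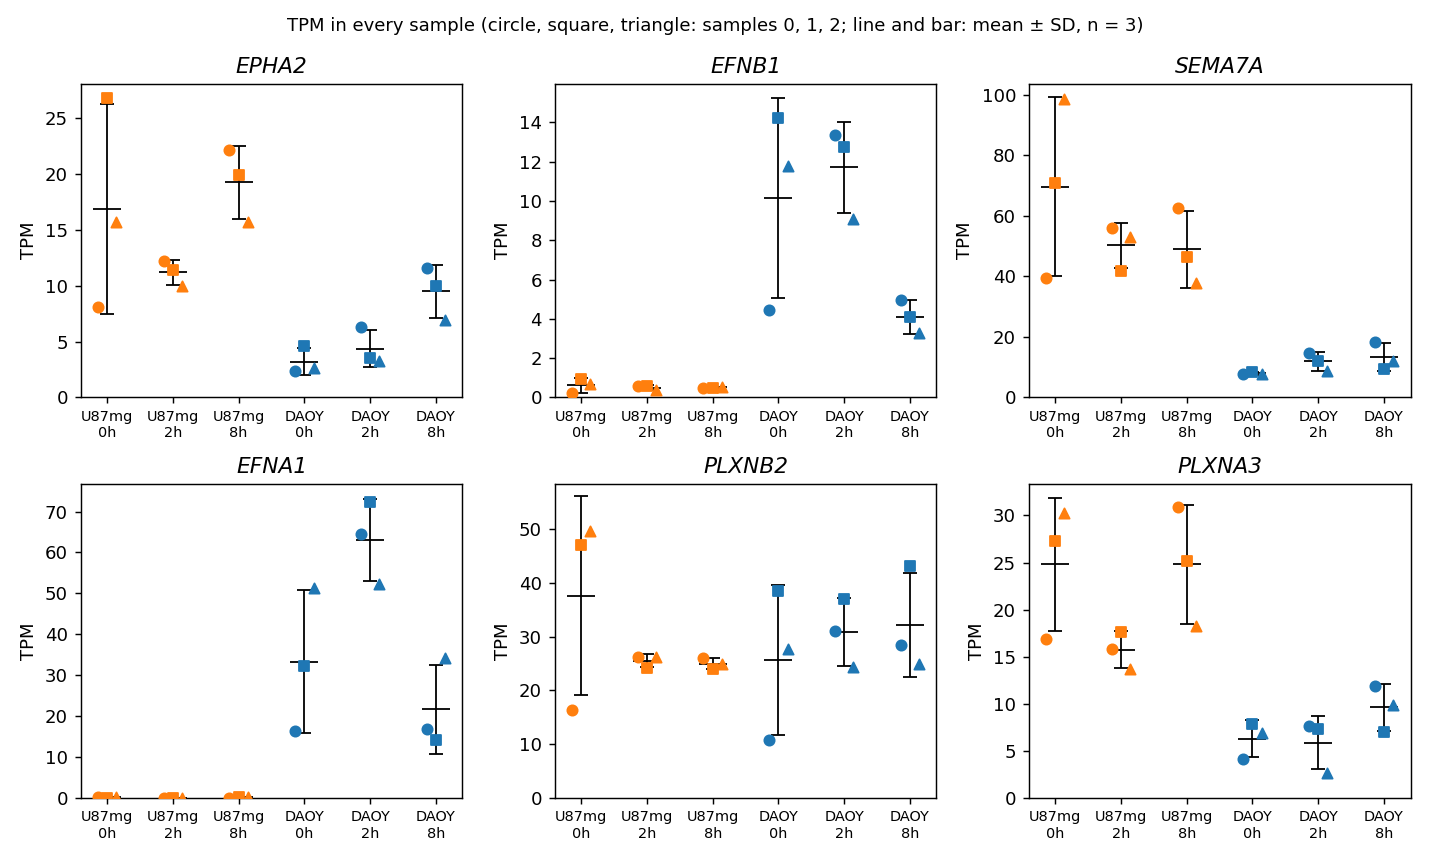
TPM (vertical axes, from 0) of 6 members in all 18 samples, U87mg in orange and DAOY in blue at 0, 2 and 8 h, with symbols for samples 0, 1 and 2 and a line and bar for the mean ± SD (n = 3). EPHA2 in DAOY rose from 2.36 to 4.56 TPM at 0 h to 6.95 to 11.6 TPM at 8 h, and sample 0 of the 0 h groups was the lowest for PLXNB2.

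EFNB1 and SEMA7A came next in DAOY at 8 h. EFNB1, a transmembrane ligand of EPHB receptors, was at 4.46, 14.2 and 11.8 TPM at 0 h, 13.3, 12.7 and 9.07 TPM at 2 h and 4.98, 4.08 and 3.26 TPM at 8 h. The 8 h samples lay below all 2 h samples and overlapped with sample 0 of 0 h. Its log2 fold change was -1.20 (SE 0.33) and missed the threshold (edgeR adjusted p = 0.0596). It passed by DESeq2, without a filter on low counts, with all 18 samples in one fit and with the GC trend removed. The last gave log2 -1.21 (edgeR adjusted p = 0.0056), with a pass in all 6 single omissions under that fit (-1.34 to -1.07). Without the GC correction it passed in 1 of 6 single omissions (-1.51 to -0.916, edgeR adjusted p up to 0.197). It did not pass by limma, with DESeq2 size factors or with at least 10 counts in every sample. Nor did it pass with protein-coding transcripts only, the replicate block or only the samples compared. SEMA7A was at 18.4, 9.34 and 12.1 TPM at 8 h, above all 0 h samples, log2 0.95 (SE 0.30, edgeR adjusted p = 0.0944), and passed by DESeq2 and without the filter. It passed in 0 of the 6 single omissions without the GC correction (log2 0.662 to 1.13, edgeR adjusted p 0.128 to 0.266), and in 3 of 22 alternatives. With the GC trend removed, 6 members were called in DAOY at 8 h, beside 15.6% of all genes: EPHA2, PLXNA3 (log2 1.03), PLXNB1 (0.80) and SEMA3C (0.55) higher, and EFNB1 and SEMA4F (-0.57) lower. The ligand EFNA1, at 16.8, 14.1 and 34.2 TPM, had log2 -0.52 at 8 h after its higher 2 h values, and was not called.

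In U87mg at 8 h, 0 of 39 members were called by edgeR, by DESeq2 or by limma, against 1.72% of the 14106 genes tested by edgeR, and 3 members, or 7.69%, had an unadjusted p under 0.05, against 15.9% of all genes. The median log2 fold change of the members was -0.24 (all genes -0.001), and 29 of the 39 values were negative, against about the same number of positive and negative values over all genes (49.9% positive). The smallest p were those of EFNA5, EPHA4 and SLIT3. EFNA5, a lipid-anchored ligand, was at 9.67, 12.1 and 16.3 TPM at 0 h and 14.8, 8.51 and 6.59 TPM at 8 h, log2 -0.44 (SE 0.14, edgeR adjusted p = 0.153). EPHA4, a receptor that binds ephrins of both classes, was at 5.88, 9.2 and 8.09 TPM at 0 h and 8.09, 5.31 and 4.23 TPM at 8 h, log2 -0.54 (SE 0.18, edgeR adjusted p = 0.159). SLIT3 had log2 -0.79 (SE 0.33, edgeR adjusted p = 0.266). In TPM the groups overlapped for both EFNA5 and EPHA4. All 8 class 4 to 7 semaphorins tested had negative values, with a median of -0.33, and none was called. Without sample 0 of 0 h, PLXNB2, PLXNB3 and SEMA4B passed as lower at 8 h (log2 -0.60, -0.96 and -0.79), beside 5.2% of all genes. With the same omission and the GC trend removed, none of these 3 passed, and EFNA5, EPHA2 and EPHA4 did, beside 5.45% of all genes.

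EPHA2 in U87mg was at 8.12, 26.8 and 15.7 TPM at 0 h, 12.2, 11.4 and 9.98 TPM at 2 h and 22.2, 19.9 and 15.7 TPM at 8 h. The 8 h samples lay above the 2 h samples and within the range of 0 h. Its log2 fold change at 8 h was 0.52 (SE 0.24) and was not called (edgeR adjusted p = 0.32). With the GC trend removed it was 0.61 (SE 0.10, edgeR adjusted p = 0.00751), where 7.08% of all genes were called, and it passed in all 6 single omissions (0.55 to 0.71). EPHA2 was the 1 member called in U87mg under that fit, and at 2 h it had log2 -0.02 there in U87mg and -0.03 in DAOY.

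**Figure D5:**
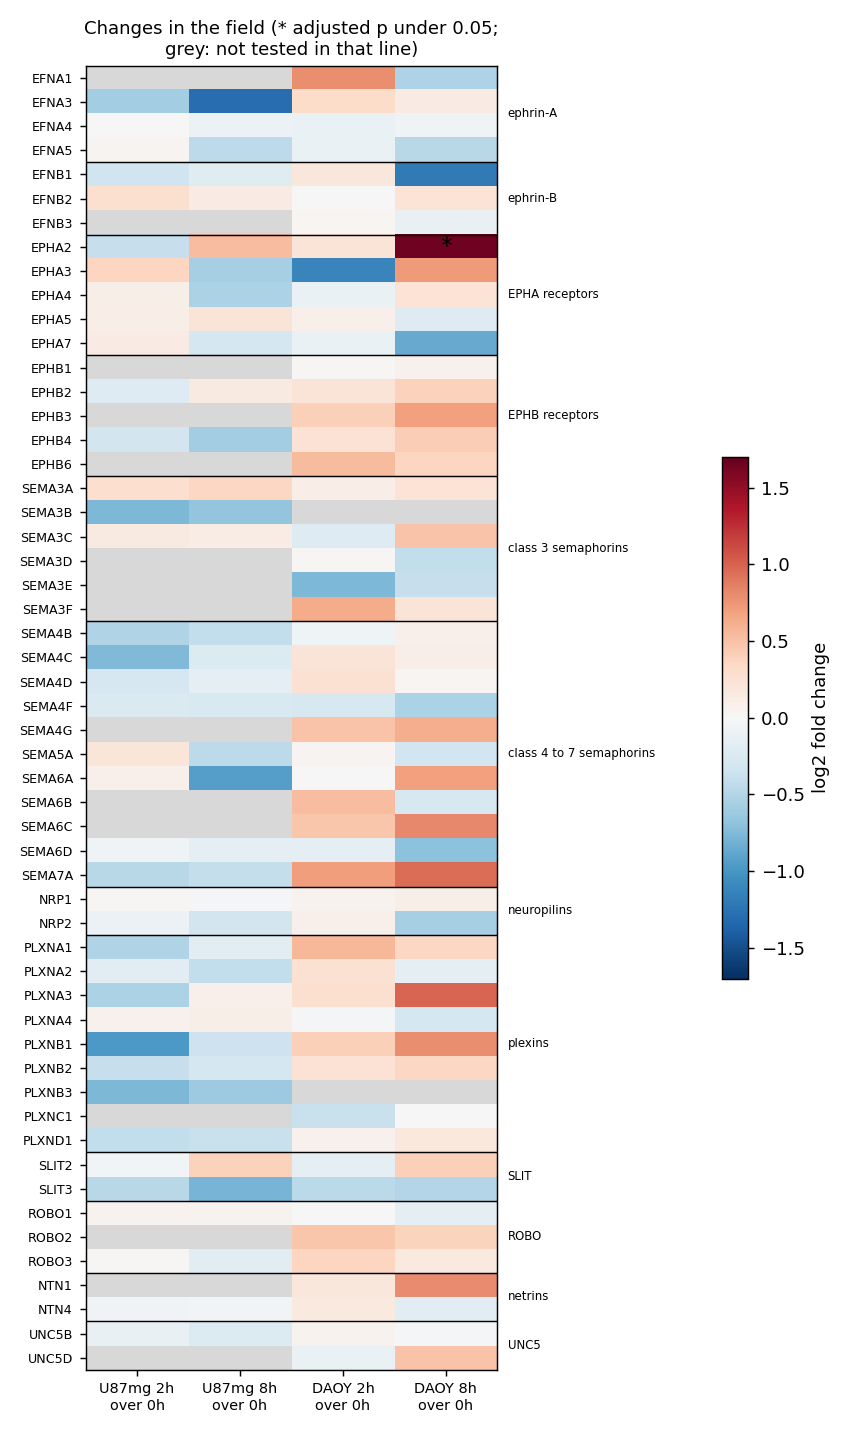
Log2 fold change (colour scale, red higher and blue lower) of each member tested, in rows by family, after 2 h and 8 h of field in U87mg and DAOY (columns); grey marks a member not tested in that line and the star an adjusted p under 0.05. The star stands at EPHA2 in DAOY after 8 h (1.65), and the deepest blue of that column at EFNB1 (-1.20).

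No member's change was shown to differ between the lines. For the 8 h change, 0 of 55 members had an edgeR adjusted p under 0.05, against 0.0121% of 16482 genes, and 0 by DESeq2 or limma, with 5 at an unadjusted p under 0.05. SEMA7A had the smallest p, with a change larger in DAOY by log2 1.35 (SE 0.43, edgeR adjusted p = 0.301). Its own values were 0.95 in DAOY and -0.40 in U87mg. EPHA4 (0.79, SE 0.26) and EPHA2 (1.12, SE 0.40) followed, with edgeR adjusted p of 0.314 and 0.355. For the 2 h change, 0 of 55 members were called by edgeR, DESeq2 or limma, against 0.0% of all genes by edgeR, with 5 at an unadjusted p under 0.05, led by PLXNB3 (2.59, SE 0.86, edgeR adjusted p = 0.62). PLXNB3 had passed the filter in U87mg alone and had at most 6 counts in any DAOY library, so this value rests on very low counts. The changes at 2 h and 8 h of a line share their 0 h samples and are given side by side only.

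Of 143 other genes of the guidance pathways, in 5 lists of receptors, signalling partners and cytoskeletal effectors, 127 were tested in DAOY and 119 in U87mg. At 2 h, edgeR called 0 in either line. At 8 h in DAOY 5 were called higher and 1 lower, or 4.72%, beside 5.85% of all genes, and at 8 h in U87mg 1 higher and 2 lower, or 2.52%, beside 1.72%. MET, the hepatocyte growth factor receptor that also partners with plexin B receptors, rose in DAOY from 51.4 TPM ± 6.41 to 97.9 TPM ± 22.8 (SD, n = 3; log2 1.01, SE 0.21, edgeR adjusted p = 0.0234). FLRT3, an adhesion protein that binds ROBO1 and UNC5B, was called lower in both lines, with log2 -1.95 (edgeR adjusted p = 0.0455) in DAOY and -1.48 (edgeR adjusted p = 0.0434) in U87mg. FLRT3 levels were low, with means of 0.835 and 0.418 TPM in DAOY and 1.03 and 0.336 TPM in U87mg at 0 h and 8 h. In DAOY its TPM overlapped, at 0.491 to 1.25 at 0 h and 0.202 to 0.83 at 8 h. In U87mg it did not, at 0.966 to 1.1 and 0.283 to 0.425. ABL2, a tyrosine kinase acting on actin downstream of Eph receptors, was called higher in both lines, with log2 0.84 (edgeR adjusted p = 0.0457) in DAOY and 0.69 (edgeR adjusted p = 0.0225) in U87mg. The adaptor NCK2 (0.70), the exchange factor TRIO (0.87) and the formin DIAPH1 (0.50) were called higher in DAOY and ELMO2 (-0.62), an activator of RAC1 with DOCK proteins, lower in U87mg. None of these 4 reached a 2-fold change.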

How the data were processed

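PolyA RNA of 18 samples was sequenced single-end after a stranded library preparation. The authors quantified transcripts with kallisto 0.43.0 on GENCODE 24 (GRCh38.p5), and the deposited table gives estimated counts and TPM per transcript and sample, which are the values used here; its columns of the authors' own comparisons were not used. The authors call the samples biological replicates and chose 3 per group by quality.

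Estimated counts were summed by gene name and rounded to whole numbers, and TPM were summed by gene name. Counts were filtered with filterByExpr, scaled by TMM and tested with edgeR 4.0.16 (quasi-likelihood) in R 4.3.3, the 3 time points of a line in one fit for field comparisons and all 18 samples for comparisons between lines, with p-values adjusted by Benjamini-Hochberg over all genes tested; a call is an adjusted p under 0.05. Fits were tested on simulated data. For DAOY at 8 h, 22 of 100 genes with a 2-fold change were called and 64 of 100 with a 3-fold change. For U87mg at 8 h these were 54 and 84 of 100, so many 2-fold changes would be missed. Alternatives were DESeq2 1.42.0, limma 3.58.1 on log2(TPM + 1), DESeq2 size factors, other filters, protein-coding transcripts only, a replicate block and omission of each sample, with a GC correction added after seeing the data. That correction subtracted a lowess trend (span 0.3) of each library on the GC content of the most abundant transcript.

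The members and lists were chosen with earlier results of these data known. Named members were those called in a field comparison, the highest of each family in each line, the 10 largest differences between lines in each direction among those called, and the 3 smallest p of each field comparison; Other guidance genes were named where called with a 2-fold change in a field comparison. All further names (the rest of each family between lines, PLXNB2 at 2 h, EFNA1 at 8 h, members called only under an alternative, and the guidance genes short of 2-fold) were chosen after their values were seen. Intervals on pooled counts cover counting error only. kallisto shares reads among similar transcripts, which makes low counts uncertain. Sequences and start sites are from RefSeq, gene coordinates from GENCODE 29.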

Additional observations from a re-analysis of the deposited data

How the results depend on the processing

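The number of members called in DAOY after 8 h, 1 as reported, was 3 by DESeq2, 3 with no filter on low counts, 3 with all 18 samples in one fit and 6 with the GC trend removed, beside 9.42%, 3.66%, 11% and 15.6% of all genes (5.85% as reported), and ran from 0 to 2 as single samples were left out. With the GC trend removed, an alternative chosen after seeing the data, it was 2, 3, 4 or 5 in those omissions. After 8 h in U87mg it was 0 as reported, 1 with the GC trend removed, and 0 to 3 with single samples left out. After 2 h it was 0 to 7 in U87mg with single samples left out, the 7 arising without sample 0 of the 0 h group, and stayed at 0 in DAOY. Between the lines at 0 h it was 43, and 23 of the 29 members tested when at least 10 counts were required in every sample (57.3% of all genes), where the members' median turned from 0.67 to -0.425. For the 8 h change between lines it was 0, and 1 (SEMA7A) with no filter. The cause of these shifts was not tested. In the comparisons for which the rule named a member, its log2 fold change had the other sign in 0 of 550 alternative values. Those members had been taken for a small p or a large difference in these same samples. A change of sign was thus unlikely from the start, and the count says nothing of the other members. Elsewhere signs turned, as for EPHA2 in DAOY at 2 h (0.21, and -0.03 with the GC trend removed), PLXNB2 in U87mg at 2 h (-0.40, and 0.02) and EFNA5 between the lines (-0.70, and 0.08 by limma on TPM).

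Samples of equal number correlated over 0.1 in all 3 pairs of U87mg 2 h with 8 h (0.146 to 0.263), but not in all pairs of any comparison with 0 h (-0.2 to 0.315), so the numbers were not taken to pair the samples compared. With the replicate block the members called stayed at 0 in U87mg at 2 h and 8 h, 0 in DAOY at 2 h, 1 in DAOY at 8 h and 43 between the lines, while calls over all genes at 8 h fell to 429 in DAOY from 900 and to 145 in U87mg from 243.

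With 3 samples a group, a common biological coefficient of variation of 0.18 in U87mg and 0.256 in DAOY limits which changes pass, and of the 13 members under the filter in both lines all but ROBO4 were tested in no comparison.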
